A study of Arabidopsis thaliana with 28 samples.

Results

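The mitogen-activated protein kinase (MAPK) cascade of *Arabidopsis* was described through 41 genes among the 27371 of the expression tables. They were chosen by name and identifier, not by their values. The set holds the 20 MAPKs *MPK1* to *MPK20*, the 10 MAPK kinases *MKK1* to *MKK10*, 8 MAPKK kinases (*MEKK1* to *MEKK3*, *ANP1* to *ANP3*, *MAPKKK3* and *MAPKKK5*) and the 3 phosphatases *AP2C1*, *MKP1* and *MKP2*. All 41 identifiers were found in both tables.

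A MAPK cascade is a relay in which a MAPKK kinase phosphorylates a MAPK kinase, which phosphorylates the activation loop of a MAPK, which in turn phosphorylates its substrates. Phosphatases such as AP2C1 and MKP1 remove these phosphates and switch the relay off. In *Arabidopsis* the relay is started within minutes when the receptor FLS2 binds flg22, a peptide of bacterial flagellin, and this activation occurs on existing proteins, whereas the present data measure transcripts. The transcription factor IDD4, which binds the ID1 motif AGACAA, is a substrate of MPK6.

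RNA of whole 14-day-old seedlings was sequenced in 2 experiments. In the first, Col-0 plants (WT) and 1 T-DNA line (labelled Salk_148352C and *idd4*) were left untreated or were treated with 1 μM flg22 for 1 h. The insertion lies in the first exon of *IDD4*. In the second, a WT of its own was compared with 3 lines in Col-0, all without a named treatment: *IDD4ox* (*pUBI10*::*IDD4*:*GFP* in the labels, with the tag before IDD4 in the text of the study), *IDD4-AA* and *IDD4-DD* (*pUBI10* constructs with an RFP tag). The labels list 3 samples per group in the first experiment and 2 in the second, and the tables hold 1 value per gene and group. The *pUBI10* promoter is active in most tissues, and the 3 lines keep their own *IDD4* gene beside the transgene. *IDD4-AA* and *IDD4-DD* differ in the codons of serine 73 and threonine 130, the sites that MPK6 phosphorylates. These were changed to alanine, which cannot be phosphorylated, or to aspartic acid, whose charge resembles a phosphate. The oligonucleotides that introduced these codons are shown because they define the lines, with the codon in capitals; under the names "IDD4 locus" stand the same stretches read from the TAIR10.1 genome.
IDD4 locus around serine 73: ggtagcattaTCTccaaagacacta
Serine 73 to alanine: ggtagcattaGCTccaaagacacta
Serine 73 to aspartic acid: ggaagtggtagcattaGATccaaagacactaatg
IDD4 locus around threonine 130: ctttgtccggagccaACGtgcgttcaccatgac
Threonine 130 to alanine: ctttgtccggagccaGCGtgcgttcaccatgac
Threonine 130 to aspartic acid: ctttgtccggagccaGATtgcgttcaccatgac

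The unit is FPKM, that is, sequenced fragments scaled to the length of the transcript and to the number of mapped fragments, so that levels can be set side by side between genes. A level is an FPKM value, and a change is a difference of log2(FPKM + 1), a scale that understates changes of genes of low level. With 1 value per group there is no replicate error, so that no difference has a test. Changes were instead set beside those of all genes of at least 1 FPKM in either group, and were counted from 2-fold for flg22 and from 1.5-fold between genotypes or lines. Because whole seedlings were used, fewer cells of a type and less RNA per cell cannot be told apart.

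The level of the targeted gene was not lower in the T-DNA line. *IDD4* had 14.5 FPKM in untreated WT and 23.0 in the untreated T-DNA line, and 5.69 and 22.4 after flg22, so that the line is called the plants labelled *idd4* throughout. The study reports this line as homozygous and as a knockout, by sequencing and RT-PCR. Whether the fragments counted here come from an intact *IDD4* transcript was not tested. In the second experiment *IDD4* had 9.23 FPKM in WT, 71.6 in *IDD4-AA*, 198 in *IDD4-DD* and 197 in *IDD4ox*. The flg22 treatment was seen in *FLS2*, with 1.42 and 48.7 FPKM in WT and 2.15 and 67.0 in the plants labelled *idd4*. The leaf gene *LHCB3* (2898 to 4148 FPKM) and the root gene *PIN2* (2.59 to 7.12 FPKM) were present in all 8 groups. A further shoot gene, *GL1*, was low at 0.391 to 1.08 FPKM. The seed storage gene *CRA1* had 1.56 FPKM in untreated WT of the first experiment and 0.0121 to 0.0649 in the other groups. The cause of this difference was not tested.

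In untreated WT the members lay at a median of 6.28 FPKM, with 14 of at least 10 FPKM and 9 below 1 FPKM, and the highest was *MKK5* at 24.7. In WT after flg22 the median was 7.35 FPKM, with *MPK3* highest at 184. A total of 4 members stayed below 1 FPKM in all 8 groups, namely *MPK10*, *MKK8*, *MKK10* and *ANP2*. *MKK8* (AT3G06230) was listed at 0 in all 8 groups. *MKK10* (AT1G32320) was listed at 0 in all groups except untreated WT, with 0.175 FPKM, and *IDD4-AA*, with 0.0685. *MPK10* (AT3G59790), a relative of *MPK3* and *MPK6*, was listed at 0 in untreated plants labelled *idd4* and had 0.0287 FPKM in untreated WT, 0.0196 in WT and 0.0291 in the plants labelled *idd4* after flg22, and 0.211 to 0.293 in the second experiment.

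**Figure D1:**
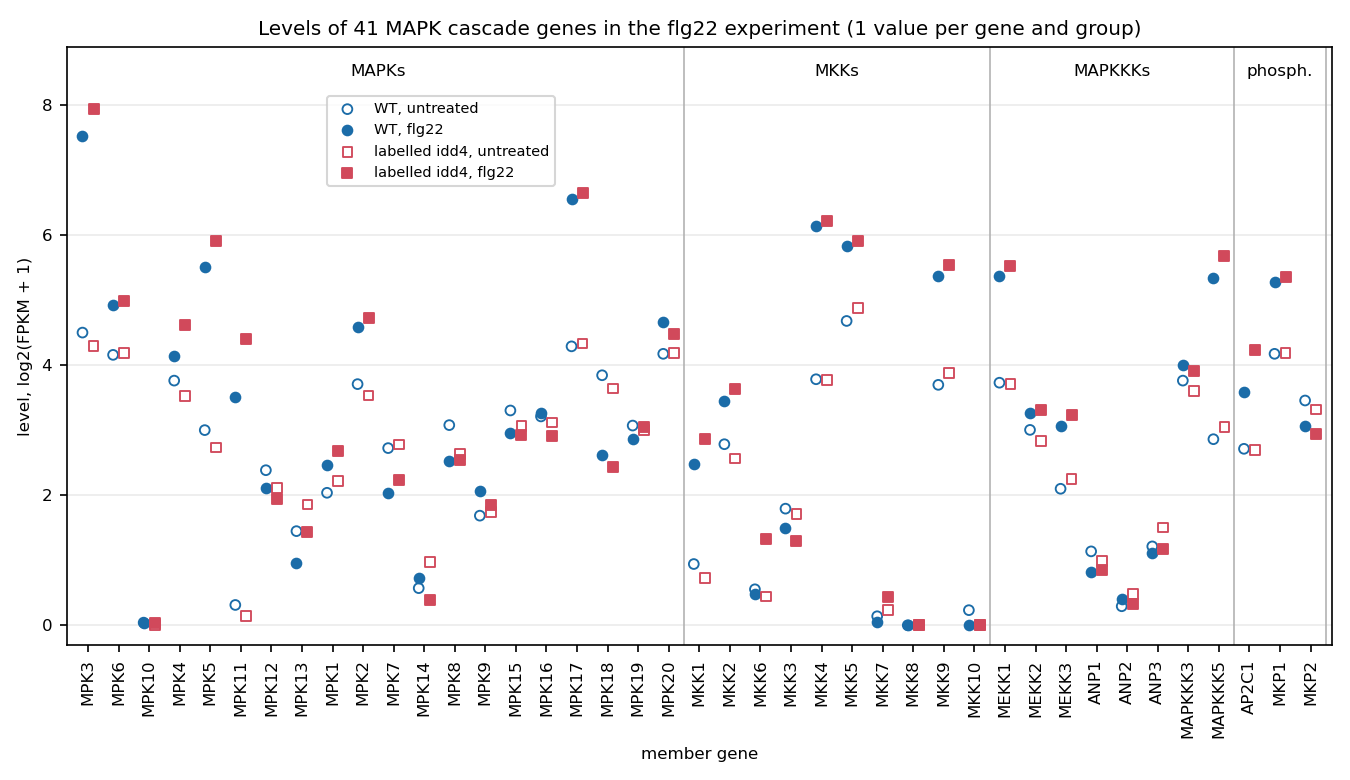
Level of each of the 41 members as log2(FPKM + 1) in the flg22 experiment, 1 point per gene and group, with open symbols for untreated and filled symbols for flg22-treated seedlings. Filled symbols lie far above open ones for *MPK3*, *MPK5*, *MPK11*, *MPK17*, *MKK4*, *MKK9*, *MEKK1* and *MAPKKK5*, and below them for *MPK18*.

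The first comparison asked how the cascade genes change when seedlings perceive flg22. Of the 34 members of at least 1 FPKM in WT, 11 were at least 2-fold higher after flg22, against 10.9% of all 18540 genes compared, and 1 was at least 2-fold lower, against 8.48%. The median change of the members was 0.46 and that of all genes was -0.16. In the plants labelled *idd4*, 15 of 34 members were at least 2-fold higher, against 13.1% of all genes, and 1 was lower, against 8.33%, with medians of 0.84 and -0.06. The higher members came from every tier of the relay, and *MPK18* was the lower one in both genotypes.

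At the top of the relay, *MEKK1* and *MAPKKK5* stood out among the MAPKK kinases. *MEKK1* (AT4G08500), which acts above MKK1 and MKK2 and is needed for MPK4 activation, had 12.3 FPKM in WT and 12.1 in the plants labelled *idd4* when untreated, and 40.7 and 45.0 after flg22. Its changes were 1.65 and 1.81, and its level in the second experiment was 8.11 in WT and 9.11 to 10.6 in the 3 lines. *MAPKKK5* (AT5G66850), which phosphorylates MKK4 and MKK5 upon flg22, had 6.28 and 39.8 FPKM in WT and 7.26 and 50.2 in the plants labelled *idd4*, changes of 2.49 and 2.63. It lay between 5.74 and 7.49 FPKM in the second experiment. *MAPKKK3* (AT1G53570), which acts in the same step as MAPKKK5, changed by only 0.24 and 0.29.

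The neighbours of *MEKK1* on chromosome 4 moved less. *MEKK3* (AT4G08470) had 3.29 and 7.35 FPKM in WT and 3.75 and 8.38 in the plants labelled *idd4*, changes of 0.96 and 0.98 that stayed just under 2-fold with the added 1 FPKM. With 0.1 FPKM added the changes of *MEKK3* were 1.13 and 1.14, past 2-fold. *MEKK2* (AT4G08480), whose protein is linked to the immune receptor SUMM2, changed by 0.26 and 0.48. The 3 genes are similar copies that lie close together, and how the counting divided reads between them was not tested. The ANPs, kinases of cell division, were all of low level: *ANP1* (AT1G09000), *ANP2* (AT1G54960) and *ANP3* (AT3G06030) lay between 0.225 and 3.07 FPKM over all 8 groups. Their changes with flg22 were between -0.33 and 0.11.

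In the middle tier, 4 of 6 MAPK kinases compared in WT and 5 of 7 in the plants labelled *idd4* were at least 2-fold higher after flg22, with medians of 1.34 and 1.06. Of all genes compared, 10.9% and 13.1% were so, with medians of -0.16 and -0.06. MKK4 and MKK5 are the kinases of MPK3 and MPK6. *MKK4* (AT1G51660) had 12.8 FPKM in untreated WT and 12.7 in untreated plants labelled *idd4*, and 69.8 and 73.6 after flg22, while the second experiment gave 13.2 to 16.4. *MKK5* (AT3G21220) had 24.7 and 28.6 FPKM untreated, 55.9 and 59.2 after flg22, and 18.4 to 22.2 in the second experiment. The pair thus differed in size, with changes of 2.36 and 2.44 for *MKK4* and 1.15 and 1.03 for *MKK5*, and treated seedlings had more *MKK4* than *MKK5* although untreated ones had less.

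*MKK9* (AT1G73500) also acts above MPK3 and MPK6, in ethylene and camalexin synthesis. It had 12 and 13.8 FPKM untreated and 40.7 and 45.5 after flg22, changes of 1.68 and 1.65. The second experiment, whose table was made separately, gave 62.0 FPKM in WT, 57.2 in *IDD4-AA*, 68.9 in *IDD4-DD* and 52.1 in *IDD4ox*.

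MKK1 and MKK2 are the kinases of MPK4. *MKK1* (AT4G26070) had 0.922 FPKM in untreated WT and 0.658 in untreated plants labelled *idd4*, and 4.58 and 6.31 after flg22, changes of 1.54 and 2.14. *MKK2* (AT4G29810) went from 5.90 to 10 FPKM in WT and from 4.93 to 11.4 in the plants labelled *idd4*, and only the second change, 1.06 against 0.67, passed 2-fold. Both were thus higher after flg22 in either genotype, *MKK1* from a much lower level.

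The other MAPK kinases were low. *MKK3* (AT5G40440), which acts above the group C MAPKs, changed by -0.30 and -0.42. *MKK6* (AT5G56580), a kinase of cell division that acts above MPK4 and MPK13, had 0.468 FPKM in untreated WT, 0.359 in untreated plants labelled *idd4* and 0.392 in WT after flg22, and 1.5 in the plants labelled *idd4* after flg22. *MKK7* (AT1G18350), known from auxin transport and systemic resistance, lay between 0.0386 and 0.358 FPKM in the flg22 experiment. The depth behind levels this low is unknown.

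Among the MAPKs, 4 of 18 compared in WT and 6 of 18 in the plants labelled *idd4* were at least 2-fold higher after flg22. Of all genes compared, 10.9% and 13.1% were so. *MPK3* and *MPK6*, the MAPKs of group A that flg22 activates most strongly, behaved differently as transcripts. *MPK3* (AT3G45640) had 21.7 FPKM in untreated WT and 18.7 in untreated plants labelled *idd4*, and 184 and 246 after flg22. *MPK6* (AT2G43790) had 16.9 and 17.3 FPKM untreated and 29.5 and 30.9 after flg22, and 15.8 to 17.4 in the second experiment. The changes were 3.02 and 3.65 for *MPK3* against 0.77 and 0.80 for *MPK6*, so that the 2 genes were close in untreated seedlings of this experiment and far apart in treated ones. In the second experiment, for which no treatment is named, they were also apart, with 53.9 to 61.6 FPKM for *MPK3*.

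Group B, which holds MPK4 and its relatives, had the widest range of changes. *MPK11* (AT1G01560), the closest relative of *MPK4* and itself activated by flg22, had 0.242 and 0.105 FPKM untreated and 10.4 and 20.3 after flg22. These were the largest changes of all members, 3.20 in WT and 4.27 in the plants labelled *idd4*, with 0.347 to 0.592 FPKM in the second experiment. *MPK5* (AT4G11330) had 7.02 and 5.66 FPKM untreated and 44.8 and 59.5 after flg22, changes of 2.51 and 3.18, and 4.30 to 5.30 in the second experiment. *MPK4* (AT4G01370) had 12.6 and 10.5 FPKM untreated and 16.6 and 23.5 after flg22, and its change of 0.37 in WT and 1.09 in the plants labelled *idd4* made it 2-fold higher in the latter. *MPK12* (AT2G46070), which acts in guard cells, and *MPK13* (AT1G07880), a target of MKK6, were lower in both genotypes by less than 2-fold, with changes from -0.49 to -0.17.

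In group C, which lies below MKK3, *MPK2* (AT1G59580) was the member past 2-fold. It had 12.1 and 10.6 FPKM untreated and 23.0 and 25.6 after flg22, changes of 0.87 and 1.2, and 14.7 to 19.6 FPKM in the second experiment. Its close relative *MPK1* (AT1G10210) changed by 0.43 and 0.46. *MPK7* (AT2G18170) went the other way, with 5.62 and 5.88 FPKM untreated and 3.09 and 3.70 after flg22, changes of -0.69 and -0.55. *MPK14* (AT4G36450) did not exceed 1.27 FPKM in any group.

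The 8 MAPKs of group D, which carry the sequence TDY in place of TEY in their activation loop, had median changes of -0.08 in WT and -0.03 in the plants labelled *idd4*, and 2 of them moved in opposite directions. *MPK17* (AT2G01450), which has been linked to the division of peroxisomes, had 18.6 and 19.2 FPKM untreated, 93.7 and 99.2 after flg22, and 16.9 to 19.4 in the second experiment. *MPK18* (AT1G53510), which has been linked to cortical microtubules, had 13.4 and 11.5 FPKM untreated, 5.16 and 4.43 after flg22, and 12.3 to 13.1 in the second experiment. Their changes of 2.27 and 2.31 for *MPK17* and of -1.23 and -1.2 for *MPK18* were nearly equal between genotypes. The other 6 members of the group, *MPK8* (AT1G18150), *MPK9* (AT3G18040), *MPK15* (AT1G73670), *MPK16* (AT5G19010), *MPK19* (AT3G14720) and *MPK20* (AT2G42880), changed by between -0.56 and 0.50.

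Of the phosphatases, *MKP1* (AT3G55270), which inactivates MPK6, had 17.1 and 17.3 FPKM untreated and 37.9 and 39.9 after flg22, changes of 1.11 and 1.16, and 17.5 to 20.2 in the second experiment. *AP2C1* (AT2G30020), a protein phosphatase 2C that inactivates MPK3, MPK4 and MPK6, had 5.57 and 5.48 FPKM untreated and 11.0 and 17.9 after flg22. Its changes were 0.87 in WT and 1.55 in the plants labelled *idd4*. *MKP2* (AT3G06110), a phosphatase of the same class as MKP1, was slightly lower in both genotypes, by -0.39 and -0.38. The 3 phosphatases of the same kinases thus differed in direction and size.

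**Figure D2:**
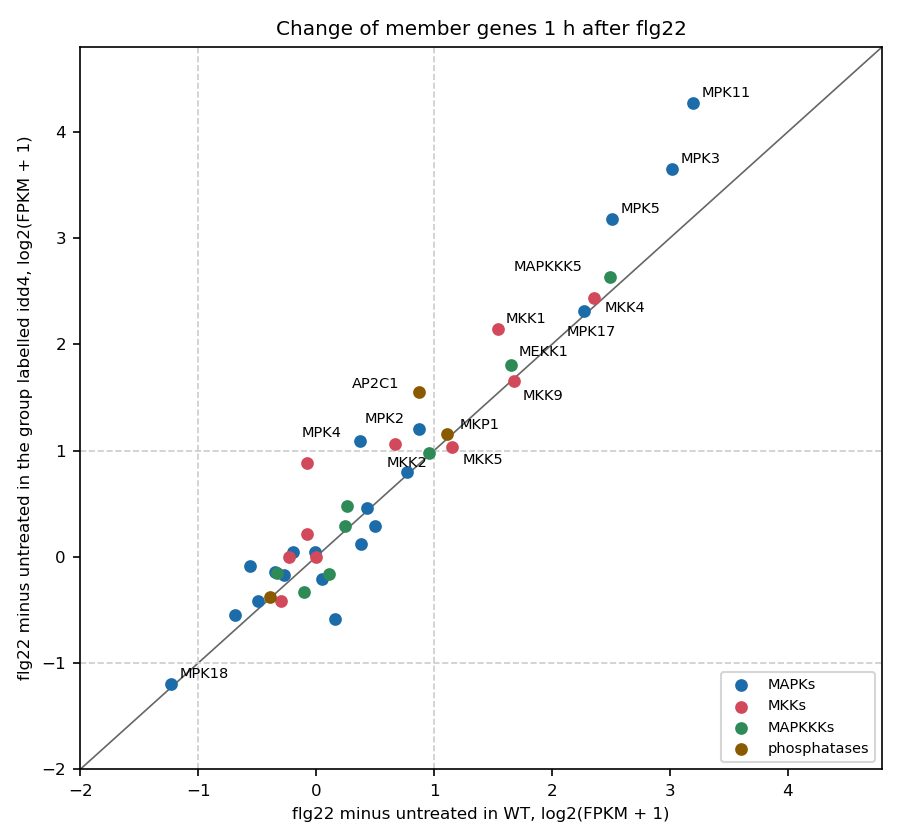
Change after flg22 as a difference of log2(FPKM + 1) in WT (horizontal) and in the plants labelled *idd4* (vertical) for the 41 members, 1 point per gene, with names for those past 2-fold in either genotype. *MPK11*, *MPK3*, *MPK5*, *MKK1*, *AP2C1* and *MPK4* lie above the line of equal change, and *MPK18* is the one below the lower dashed lines at -1.

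The second comparison asked whether the T-DNA line differs from WT in these genes. Untreated, 0 of 32 members were at least 1.5-fold higher, against 1.59% of all genes, and 0 were lower, against 2.02%. The members ranged from -0.45 for *MPK8* to 0.41 for *MPK13*, with a median of -0.04 beside -0.05 for all genes. Shares this small correspond to less than 1 of 32 members, so that the absence of calls does not set the members apart.

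After flg22, 3 of 34 members were at least 1.5-fold higher in the plants labelled *idd4*, against 3.15% of all genes, and 0 were lower, against 1.72%. The 3 genes were *MPK11*, *MKK6* and *AP2C1*. *MKK6* passed the minimum of 1 FPKM only in the plants labelled *idd4*, the group where it was higher. With a minimum of 5 FPKM it was no longer compared, leaving 2. *MPK11* differed by 0.90, from 10.4 to 20.3 FPKM, *MKK6* by 0.85, from 0.392 to 1.5 FPKM, and *AP2C1* by 0.66, from 11.0 to 17.9 FPKM. The study, which tested biological replicates, reports *MKK6* and *MPK11* as elevated in *idd4* after flg22. It also places *AP2C1* among the bound genes that IDD4 represses. *MPK4* and *MPK13*, both at 0.48, *MPK3* at 0.42, *MPK5* at 0.40 and *MKK1* at 0.39 followed below 1.5-fold. The lowest of the members compared was *MPK16* at -0.35, and 25 of the 34 lay above WT by any amount and 9 below it, with a median of 0.11 beside 0.06 for all genes.

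The change with flg22 was then set against the genotype, which uses the same 4 groups. It was larger in the plants labelled *idd4* for 28 of 35 members, while 65.4% of all 18964 genes showed the same, and the median difference of the members, 0.10, lay beside 0.11 for all genes. A general shift of this size was thus shared by the members and the other genes. At least 1.5-fold more positive were 7 members, against 6.58% of all genes, and 0 were more negative, against 2.75%. These were *MPK11* with a difference of 1.07, *MKK6* with 0.96, *MPK4* with 0.72, *AP2C1* with 0.68, *MPK5* with 0.67, *MPK3* with 0.62 and *MKK1* with 0.60. *MKK6* reached 1 FPKM in 1 of these 4 groups, the plants labelled *idd4* after flg22.

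Of the 15 members at least 2-fold higher after flg22 in either genotype, all 15 had a higher level after flg22 in the plants labelled *idd4* than in WT, and 10 had a lower level there when untreated. The change was larger in that group for 13 of the 15, the exceptions being *MKK5* and *MKK9*. Of all 2576 genes past 2-fold in the same way, 85.4% were higher after flg22 in that group, 54.1% were lower when untreated and 81.7% had the larger change, so that these members resembled flg22-induced genes in general, and their choice used the same groups. *MPK2*, *MPK4*, *MKK2* and *AP2C1* were past 2-fold in that group alone, which does not show that their changes differ between the genotypes, since the difference could not be tested. *MKK4*, *MPK17* and *MKP1*, at differences below 0.1, are examples of flg22-induced members with nearly the same change in both genotypes.

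The third comparison asked what more IDD4, or IDD4 fixed in one state at its MPK6 sites, does to the cascade genes of seedlings for which no treatment is named. All 3 lines were set against the same WT group. In *IDD4ox*, 1 of 36 members was at least 1.5-fold higher than in WT, against 3.94% of all genes, and 1 was lower, against 2.49%. In *IDD4-AA*, 0 of 34 members were higher, against 1.85%, and 1 was lower, against 2.12%. In *IDD4-DD*, 0 of 34 were higher, against 3.15%, and 0 lower, against 2.47%. The counts are near or below those shares, and most members stayed close to WT although *IDD4* itself was far above it in all 3 lines.

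*AP2C1* was the member that differed most in *IDD4ox*. Its level was 28.4 FPKM in WT, 22.3 in *IDD4-DD*, 20.3 in *IDD4-AA* and 14.8 in *IDD4ox*, so that all 3 lines were below WT, by -0.34, -0.47 and -0.90. In the first experiment *AP2C1* differed between the plants labelled *idd4* and WT by -0.02 when untreated and by 0.66 after flg22. *MKK7*, at 0.337 FPKM in WT, 0.174 in *IDD4-AA* and 0.197 in *IDD4-DD*, had 1.16 in *IDD4ox*, a difference of 0.70 that rests on levels near the lowest compared. It was compared only through *IDD4ox*, the group where it was high.

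*MKK1* was the member that differed most in the phosphosite lines. It had 3.49 FPKM in WT, 1.71 in *IDD4-AA*, 2.02 in *IDD4-DD* and 3.13 in *IDD4ox*, differences of -0.73, -0.57 and -0.12. Both phosphosite lines were below *IDD4ox*, and their values were close to each other. These lines differ from *IDD4ox* in the tag too, and *IDD4* had 71.6 FPKM in *IDD4-AA*, 198 in *IDD4-DD* and 197 in *IDD4ox*. The part of the codons cannot be told apart from these. With a minimum of 5 FPKM *MKK1* was no longer compared. *MKK2*, the partner of *MKK1*, had 8.88 FPKM in WT, 7.77 in *IDD4-AA*, 7.01 in *IDD4-DD* and 7.47 in *IDD4ox*. It differed by no more than 0.30 from WT.

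*MPK3* was nearly level across the 4 groups, at 61.6 FPKM in WT, 57.6 in *IDD4-AA*, 60.6 in *IDD4-DD* and 53.9 in *IDD4ox*. *MPK4* was so too, at 19.6, 18.9, 20.1 and 22 FPKM in the same order. Of 36 members of at least 1 FPKM in some group, 12 were above WT in all 3 lines and 11 below it in all 3, against 33.8% and 20.9% of all 19336 genes, and these counts share 1 WT value. The 5 members *AP2C1*, *MKK7*, *MKK1*, *MPK13* and *MPK14* spanned 1.5-fold or more over the 4 groups, against 14% of all genes. Of these, *MKK7* and *MPK14* reached 1 FPKM in *IDD4ox* alone, so that they were counted only through the group where they were highest. *MPK13* had 3.10 FPKM in WT, 4.69 in *IDD4-AA*, 3.52 in *IDD4-DD* and 2.55 in *IDD4ox*, and *MPK14* had 0.620, 0.514, 0.419 and 1.27.

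*IDD4-DD* was also compared with *IDD4-AA*, which differ in the charge of the 2 sites. No member reached 1.5-fold: 0 of 34 were higher, against 2.7% of all genes, and 0 were lower, against 1.43%. The extremes were *ANP3* at 0.47, with 1.94 FPKM in *IDD4-AA* and 3.07 in *IDD4-DD*, and *MPK13* at -0.33. The median was 0.04 beside -0.01 for all genes. The level of *IDD4*, at 71.6 FPKM in *IDD4-AA* and 198 in *IDD4-DD*, moved with this comparison, so that the amount of the transgene and the kind of change cannot be told apart.

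**Figure D3:**
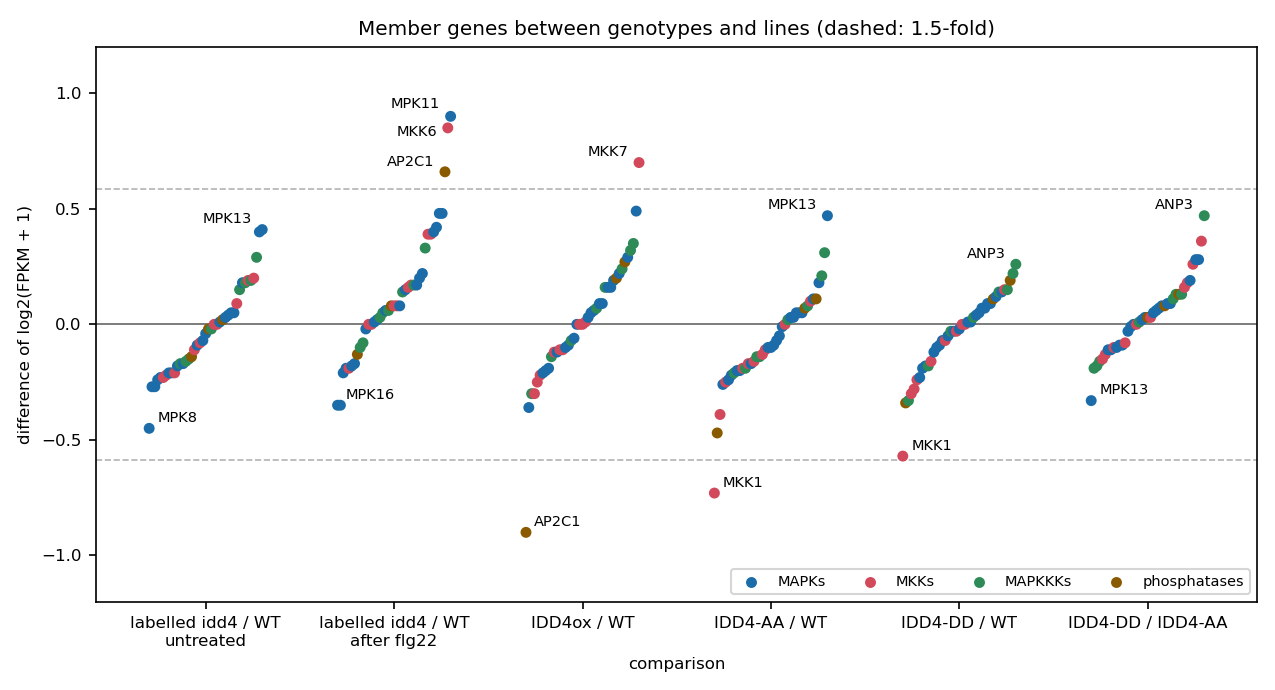
Difference of log2(FPKM + 1) of the 41 members in 6 comparisons between genotypes or lines, 1 point per gene sorted by size within each comparison, with dashed lines at 1.5-fold and names for the members beyond them and at the extremes. *MPK11*, *MKK6* and *AP2C1* lie above the upper line after flg22, *MKK7* above it and *AP2C1* below the lower line in *IDD4ox*, and *MKK1* below it in *IDD4-AA*.

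The 2 WT groups were not alike in the members, although both were seedlings of the same age and no treatment is named for either. Of 34 members compared, 5 were 2-fold or more above the first WT in that of the second experiment, against 9.61% of all 19027 genes, and 0 were lower, against 7.06%. *MKK9* was 5.18-fold higher, *AP2C1* 5.11-fold, *MKK1* 3.79-fold, *MPK7* 3.03-fold and *MPK3* 2.84-fold as ratios of FPKM. Of these, *MKK9*, *AP2C1*, *MKK1* and *MPK3* were also past 2-fold after flg22 in at least 1 genotype, whereas *MPK7* had changes of -0.69 and -0.55. The share of all genes past 2-fold in both ways was not computed, so that this overlap is not a result about the members. Of the other members past 2-fold after flg22, *MPK11* was below 1 FPKM in both WT groups, at 0.242 and 0.592, and was not compared. The rest were not past 2-fold here. Their ratios were 0.659 for *MEKK1*, 0.661 for *MPK5*, 0.888 for *MKK5*, 0.907 for *MPK17*, 1.02 for *MKP1* and 1.19 for *MAPKKK5*. They were 1.29 for *MKK4*, 1.38 for *MPK2*, 1.51 for *MKK2* and 1.55 for *MPK4*. The tables were made separately, and the experiment and its sequencing run cannot be told apart, so that levels set side by side across the experiments are a description.

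**Figure D4:**
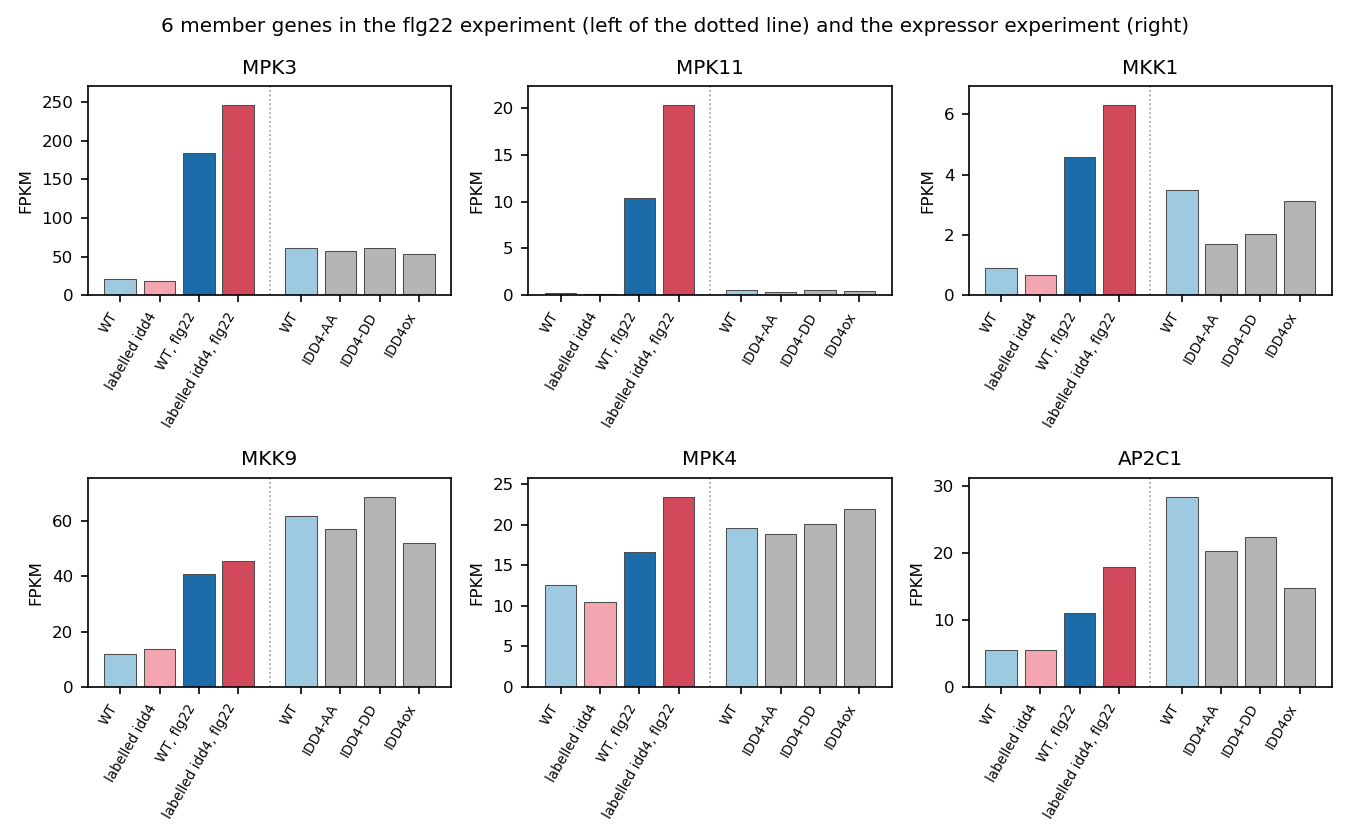
Level in FPKM of 6 members in all 8 groups, 1 bar per group with no error because 1 value is held, the flg22 experiment on the left of each dotted line and the expressor experiment on the right. *AP2C1* and *MKK9* were higher in the right-hand WT (28.4 and 62.0 FPKM) than in flg22-treated WT (11.0 and 40.7), and *MPK11* was not (0.592 against 10.4).

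The promoters of the members were searched for 2 motifs in the window from 250 bases before to 50 after each RefSeq gene start on TAIR10.1, on both strands: AGACAA, the ID1 core, and the W-box, TTGACC or TTGACT, that WRKY factors bind. AGACAA was found in 9 of 41 members, against 23.6% of 27431 protein-coding genes, and a W-box in 15 of 41, against 32.4%. Of the 15 members higher after flg22, 1 held AGACAA and 7 a W-box, below and above those shares. The shares among all flg22-induced genes were not computed, and this difference was not tested. The sites of *MPK17* and *MPK18*, which changed in opposite directions, are shown because both genes hold each motif, beside the W-boxes of *MPK11* and *AP2C1*, whose windows hold no AGACAA. Each is written 5′ to 3′ on the strand of the gene with the match in capitals, a match to the other strand reading TTGTCT for AGACAA, or GGTCAA and AGTCAA for the W-box.
MPK17, AGACAA at -131 (chr2:203240-203269, minus strand): agagtaatgaagAGACAAaaagcaagcaac
MPK18, AGACAA at -88 (chr1:19974464-19974493, minus strand): taccctcaaatgTTGTCTaaaactacgaaa
MPK17, W-box at -202 (chr2:203311-203340, minus strand): tactaaaatcagTTGACCaataataagata
MPK17, W-box at -58 (chr2:203167-203196, minus strand): gttccaaaggatGGTCAAcaatggtgggaa
MPK18, W-box at -223 (chr1:19974599-19974628, minus strand): aattaagataggGGTCAAaatcggaattta
MPK11, W-box at -48 (chr1:202043-202072, plus strand): gttccggttacaTTGACTtgtagaccaata
AP2C1, W-box at -179 (chr2:12814080-12814109, plus strand): caaaaaaaaactGGTCAAcaagagtaggat
AP2C1, W-box at -55 (chr2:12814204-12814233, plus strand): tgttatttacaaAGTCAAagagactgaaaa
The shares among all 41 members lay near those of all genes, and a match of letters is not a bound site. A window without a match does not show that a gene is unbound. The study, which read a longer upstream region, reports IDD4 bound upstream of *AP2C1*.

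Other genes of the pathway were followed from lists of named genes. Of 13 other MAPKK kinases, 11 were compared in WT after flg22, where 4 were at least 2-fold higher and 0 lower. The shares of all genes compared in WT were 10.9% higher and 8.48% lower. *MAPKKK15* had 2.89 FPKM untreated and 43.4 after flg22 in WT, and 3.15 and 58.8 in the plants labelled *idd4*. *MAPKKK19* went from 0.222 to 10.6 and from 0.224 to 14.9 FPKM, and *EDR1*, a negative regulator of defence, from 3.79 to 13 and from 3.8 to 12.4. *MAPKKK21* was low, with 0.0578 and 1.31 FPKM in WT and 0.272 and 1.33 in the other genotype.

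Of 4 other phosphatases that the reference bears out by name, 3 were compared after flg22. None was at least 2-fold higher or lower in either genotype, with medians of 0.40 and 0.56. Of all genes compared, 10.9% in WT and 13.1% in the plants labelled *idd4* were at least 2-fold higher. At least 2-fold lower were 8.48% and 8.33%. Among the phosphatases kept out of the list for their names, AT1G07160, planned as AP2C2, changed by 5.25 in WT and 6.32 in the plants labelled *idd4*. *PP2C5*, planned as AP2C3, changed by 2.77 and 3.48 in the same order, and AT1G67820, planned as AP2C4, by -0.37 and -0.54. The absence of calls among the phosphatases compared thus depends on leaving out AT1G07160 and *PP2C5*.

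Among 17 substrates and partners, 9 were at least 2-fold higher after flg22 in WT, with a median of 1.02, and 10 were so in *idd4*-labelled plants, where the median was 1.42. Of all genes compared, 10.9% and 13.1% were so, with medians of -0.16 and -0.06. *SPCH*, a regulator of stomatal development, was named after its values were seen. It was the 1 gene of the list at least 2-fold lower in the plants labelled *idd4*, with 4.53 FPKM untreated and 1.35 after flg22, against 8.33% of all genes. *MKS1*, a partner of MPK4, had 8.63 and 115 FPKM in WT and 8.58 and 171 in the plants labelled *idd4*. *WRKY33*, a substrate of MPK3 and MPK6, had 7.16 and 221 FPKM in WT and 7.96 and 337 in the plants labelled *idd4*. *ERF6*, another substrate of these kinases, had 3.65 and 202 FPKM in WT and 6.24 and 240 in the other genotype. The genes whose proteins meet in one complex with MPK4, *MKS1* and *WRKY33*, were far higher after flg22 in both genotypes. After flg22 both were higher in the plants labelled *idd4* than in WT. The same held for 85.4% of all 2576 genes at least 2-fold higher after flg22 in either genotype.

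Some limits apply to single members. A total of 13 members overlap another protein-coding gene in the RefSeq annotation, *MPK3*, *MPK4*, *MPK5*, *MPK6*, *MKK1*, *MKK4* and *MKK5* among them, and whether the counting used strand is not stated in the sources used here. The part of overlapping genes in these values was not tested.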

How the data were processed

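Whole-seedling RNA was sequenced as 101-bp paired-end reads. By the methods of the study and the submitters' processing notes, reads were trimmed (Trimmomatic 0.32), aligned to TAIR10 (TopHat 2.1.1, at most 2 mismatches) and quantified (Cufflinks 2.2.1). The authors deposited FPKM, 1 value per gene and group; how replicates entered it is not stated in the sources used here. A supplementary table of the study heads equal values of the untreated groups by the name of a single replicate, so that a value may stand for 1 replicate or for several. The labels list 2 samples per group in the expressor experiment, and the methods of the study give 3 biological replicates. Library size and depth are unknown. Samples of chromatin immunoprecipitation were not used here.

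Of 27371 identifiers, 21642 stood away from their alphabetical place beside the values. Untreated WT of the first experiment was compared with the study's own table. Sorted identifiers gave values equal within a relative tolerance of 0.001 for 1997 of 1997 genes, and identifiers as given for 499. The other groups were not compared in this way. In the second experiment, *IDD4* as given would have been 31.7 FPKM in WT and 20.8 in *IDD4ox*, so that sorted identifiers were used.

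Differences of log2(FPKM + 1) were taken for genes of at least 1 FPKM in either group, counting 2-fold (flg22) or 1.5-fold (genotypes and lines), with Python 3.11.15, pandas 2.3.3, numpy 2.4.6 and matplotlib 3.10.9. The planned model tests need values per sample and were not run. Scripts were tested on simulated data. Alternatives were a pseudocount of 0.1, a minimum of 5 FPKM, no minimum, and scaling by the median of ratios, which shifts comparisons by -0.09 to 0.06. The members and lists were chosen with earlier results of these data known. Values are given for members past these folds in any comparison, for the best-known immune members and for members listed at 0, and of each list for up to 4 genes in the results, beside others that are said to be chosen after their values were seen. Sequences and names come from RefSeq on TAIR10.1, which matched all 41 members. AP2C2, AP2C3, AP2C4, ASR3 and PAT1 were left out of the lists because the reference does not name their identifiers so.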

Additional observations from a re-analysis of the deposited data

How the results depend on the processing

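Of 64 counts of members recomputed under the alternatives, 58 stayed within 1.5 times of the reported count and 6 moved, all between lines. With a pseudocount of 0.1 FPKM, 2 members in place of 1 were higher in *IDD4ox*, 1 in place of 0 was lower in *IDD4-DD* against WT, and 1 in place of 0 was higher in *IDD4-DD* against *IDD4-AA*. With at least 5 FPKM, 0 were higher in *IDD4ox* and 0 lower in *IDD4-AA*, because *MKK7* and *MKK1* were no longer compared, and *MKK6* was lost in the same way after flg22. After scaling by the median of ratios, 1 was lower in *IDD4-DD*. Of 1021 changes of single members, 7 moved by over 1.5-fold, all with the pseudocount of 0.1 FPKM, and 0 reversed. They were *MPK11* with flg22 (4.94 in WT, 6.64 in plants labelled *idd4*), *MKK1* with flg22 (2.19 and 3.08), *MKK6* in plants labelled *idd4* (1.80 with flg22, 1.70 against WT) and *MKK7* in *IDD4ox* (1.53). *MEKK3* passed 2-fold with flg22 under that pseudocount, and in WT (1.03) after scaling, and *MPK13* passed 1.5-fold between genotypes after flg22 (0.79) under that pseudocount. No paired analysis was possible because the tables hold 1 value per gene and group, and for the same reason no replicate could be left out. The read depth behind levels near 1 FPKM is unknown.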

Other observations

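The phosphatases of this paragraph were kept out of the lists for want of a matching name in the reference and were chosen after their values were seen. AT1G07160, which RefSeq describes as a member of the protein phosphatase 2C family, had 0.284 FPKM in untreated WT, 0.12 in untreated plants labelled *idd4*, and after flg22 48.0 in WT and 88.3 in plants labelled *idd4*. *PP2C5* (AT2G40180) had 0.354 and 8.23 FPKM in WT before and after flg22, and 0.606 and 17 in plants labelled *idd4*. In the second experiment AT1G07160 lay between 0.141 and 0.29 FPKM, so that it was low in every group for which no flg22 treatment is named.

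Substrates of the cascade, also chosen after their values were seen, differed between the 2 WT groups. *ERF104*, released from MPK6 upon flg22, had 20 FPKM in untreated WT of the first experiment and 71.9 after flg22, and 278 in the WT of the second, 284 in *IDD4-AA*, 265 in *IDD4-DD* and 209 in *IDD4ox*. *ACS6*, an enzyme of ethylene synthesis that MPK6 stabilises, had 14.0 and 29.4 FPKM in WT of the first experiment, and 85.7 in the WT and 65.8 in *IDD4ox* of the second. *ERF6* had 91.1 FPKM in that WT and 67.2 in *IDD4ox*, and *WRKY33* 50.4 and 37.8. In the same 2 groups *MKS1* (12.6 and 12.5) and *WRKY25* (8.7 and 9.09) were nearly level. *FRK1*, an early flg22 marker, had 0.221 FPKM in that WT, against 0.0543 and 4.38 in untreated and flg22-treated WT of the first experiment, and *FLS2* had 4.82, against 1.42 and 48.7. The cause of these levels was not tested.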
